A study of Mus musculus with 6 samples.

Results

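The genes described here are the mouse tripartite motif (TRIM) genes, a family of ubiquitin ligases and related proteins, read in peritoneal macrophages before and after lipopolysaccharide (LPS). Members were the rows of the deposited expression tables whose symbol begins with Trim and a number, listed once and marked OK in all 6 libraries. Of 66 such rows, 65 were kept out of 23699 rows in all. Trim32 was left out because it was not marked OK in the WT naive library. Macrophages were taken from the peritoneum of C57Bl/6 mice of 2 genotypes, miR-221/222 -/Y (KO) and wildtype (WT). The KO mice lack the genes of the microRNAs miR-221 and miR-222, and no age, pooling of animals or number of animals per library is given in the sources used here. Each genotype had an untreated (naive) group, a group given LPS at 1000 ng/ml during 4 h, and a tolerized group. Tolerization meant a first dose of 10 ng/ml during 15 h, a wash and 2 h without LPS, followed by the same 4 h at 1000 ng/ml. Each of the 6 groups was 1 library of poly-A mRNA, although the series' design text speaks of triplicates.

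A TRIM protein usually joins a RING domain, which recruits a ubiquitin-charged E2 enzyme, to B-box zinc fingers, a coiled coil and a variable end that chooses the substrate. Many members with a PRY-SPRY end are induced by interferon and act in antiviral defence or in the tuning of Toll-like receptor and RIG-I signalling. Others are housekeeping ligases, microtubule-binding proteins or nuclear co-repressors. LPS is a component of the outer membrane of Gram-negative bacteria. It is sensed by Toll-like receptor 4, which signals to NF-kB and, through TRIF and IRF3, to interferon beta. Tolerance is the altered response of cells that have met LPS before.

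Values are FPKM, the fragments of a gene divided by its length and by the depth of the library, as the authors deposited them, so levels can be set side by side between genes. Of the 65 members, 10 were listed at 0 in all 6 libraries and 21 were above 0 in at least 1 library but below 2 FPKM in every library. One member, Trim29, reached 2 FPKM in a single library, with 3.09 FPKM in KO naive cells and 1.65 FPKM in WT naive cells. The other 33 had at least 2 FPKM in at least 2 libraries and were tested, and 24 of them had at least 2 FPKM in all 6. Members listed at 0 throughout included the muscle ligase genes Trim55 and Trim63, known as MuRF2 and MuRF1. Trim38, reported in human cells to lower TAB2 and TAB3, was listed above 0 in WT tolerized cells, at 0.0337 FPKM, and at 0 in the other libraries.

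The summed FPKM of all members was 459 in KO naive and 471 in WT naive cells, 1242 in KO LPS and 1098 in WT LPS cells, and 697 in KO tolerized and 536 in WT tolerized cells. Trim30a and Trim30d together made up 9.35% of that sum in KO naive and 9.66% in WT naive cells. They made up 47.0% in KO LPS and 51.2% in WT LPS cells, and 29.7% in KO tolerized and 24.6% in WT tolerized cells. In naive cells of both genotypes the highest member was Trim28, and in the other 4 libraries it was Trim30a.

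**Figure D1:**
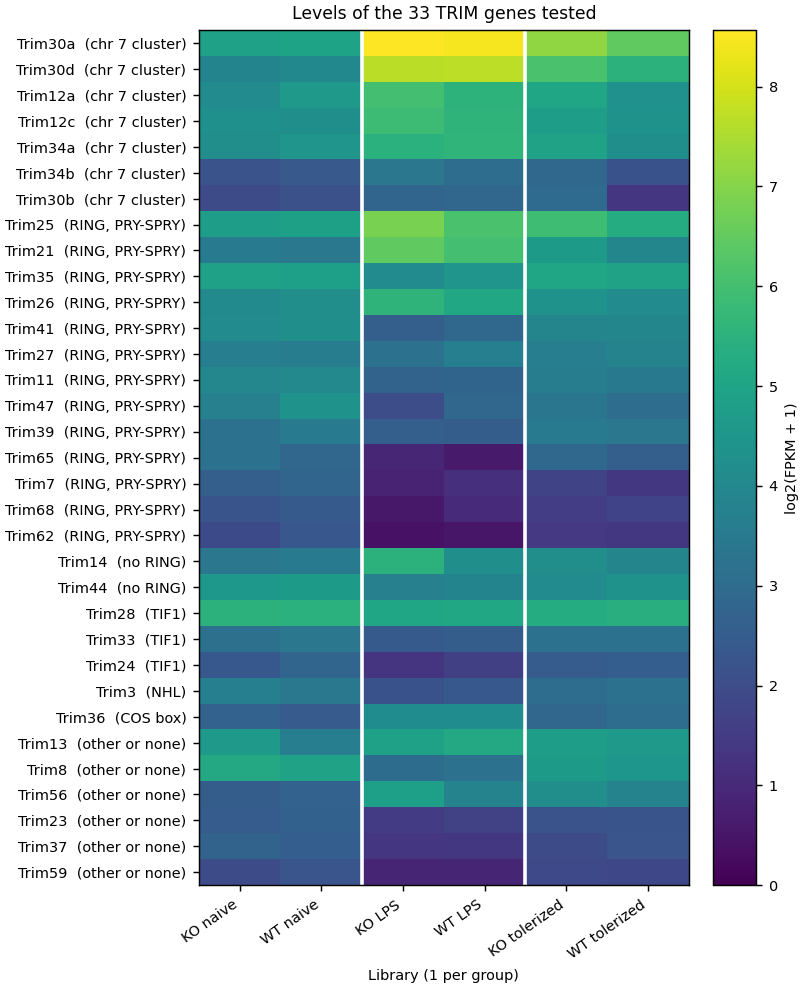
Levels of the 33 tested TRIM genes as log2(FPKM + 1), with genes as rows grouped by domain class and the 6 libraries (1 per group) as columns in naive, LPS and tolerized pairs. The chromosome 7 cluster held the brightest cells of the map in both LPS libraries, led by Trim30a at 378 FPKM in KO LPS and 352 FPKM in WT LPS cells.

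The deposited intervals of members at 10 FPKM or more had a median half-width of 4.30% to 6.92% of the value, and those between 2 and 10 FPKM of 9.50% to 13.1%. These intervals describe the uncertainty of a value within its own library, not the spread between animals or libraries. All 7 macrophage markers found in the tables were above 0 in every library, among them Lyz2 at 8538 to 45135 FPKM and Emr1 at 278 to 922 FPKM. The lowest single value was that of Fcgr1 in WT LPS cells, a gene with 5.62 FPKM in KO naive and 6.63 FPKM in WT naive cells, 19.6 FPKM in KO LPS and 3.56 FPKM in WT LPS cells, and 127 FPKM in KO tolerized and 25.8 FPKM in WT tolerized cells. The 5 markers of B cells, which also live in the peritoneum, were detected, and their summed level was 475 FPKM in KO naive and 625 FPKM in WT naive cells, 256 FPKM in KO LPS and 287 FPKM in WT LPS cells, and 520 FPKM in KO tolerized and 417 FPKM in WT tolerized cells. The summed level of 5 markers of large peritoneal macrophages was 167 FPKM in KO naive and 401 FPKM in WT naive cells, 171 FPKM in KO LPS and 190 FPKM in WT LPS cells, and 40.7 FPKM in KO tolerized and 33.6 FPKM in WT tolerized cells. Summed markers of neutrophils were at 67.4 to 349 FPKM, with S100a9 listed at 0 in all libraries, and those of mast cells at 27.8 to 47.5 FPKM. Those of T and NK cells (7.27 to 19.6 FPKM), mesothelium and fibroblasts (3.47 to 29.5 FPKM), dendritic cells (2.09 to 4.03 FPKM) and eosinophils (up to 0.195 FPKM) were lower. Their part in the TRIM results was not tested. The rows of Mir221 and Mir222 were listed at 0 in all 6 libraries, which do not measure mature microRNAs, so the KO label could not be checked from them. In bulk RNA, fewer cells of a type and less RNA per cell cannot be told apart.

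The first comparison asks what LPS changed, over both genotypes. The largest increases were those of Trim30d, Trim30a and Trim21. On log2(FPKM + 1), which understates fold changes of low genes, the largest decreases were those of Trim65 and Trim8. Of 33 tested members, 12 rose and 16 fell, and 5 did not pass the test (limma on log2(FPKM + 1), adjusted p below 0.05, 2 libraries per condition). Over all 10139 tested genes, 8.74% rose and 54.4% fell, and the median gene had a log2 fold change of -0.76. The members' median was -0.56. When each library was rescaled by its median of ratios, 14 members rose and 8 fell, against 22.6% and 24.2% of all genes. The 12 that rose on the deposited scale are therefore counted against a background of 8.74%, and the 16 that fell against one of 54.4%.

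The Trim5 and Trim30 cluster of chromosome 7 is the mouse counterpart of the region that holds the retroviral restriction factor TRIM5 in primates. Of its 7 tested genes 6 rose. Their summed level was 764 FPKM in KO LPS and 716 FPKM in WT LPS cells, against 103 FPKM in KO naive and 116 FPKM in WT naive cells. The genes of this cluster are close paralogs that can share reads, and the authors' assignment of such reads is not given, so the split between them is uncertain.

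Trim30a (chr7:111557540-111613707, mm9), which in mouse lowers TAB2 and TAB3 in Toll-like receptor signalling, had 378 FPKM in KO LPS and 352 FPKM in WT LPS cells, against 29.2 FPKM in KO naive and 30.5 FPKM in WT naive cells. Its log2 fold change was 3.57 ± 0.27 (SE, adjusted p = 0.000433, limma). Trim30d (chr7:111618529-111656363), its neighbour, had 206 FPKM in KO LPS and 211 FPKM in WT LPS cells, against 13.7 FPKM in KO naive and 15.1 FPKM in WT naive cells. Both LPS libraries stood far above both naive libraries for each gene, and the genotypes lay close together. The log2 fold change of Trim30d was 3.77 ± 0.26 (adjusted p = 0.000382, limma), the largest of the 33 members.

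Trim12a and Trim12c, relatives of primate TRIM5, changed less. Trim12c (chr7:111487268-111501872) had 58.2 FPKM in KO LPS and 46.7 FPKM in WT LPS cells, against 18.5 FPKM in KO naive and 18.4 FPKM in WT naive cells (log2 fold change 1.45 ± 0.21, adjusted p = 0.00176, limma). Trim12a (chr7:111448411-111464009) had 63.5 FPKM in KO LPS and 45.6 FPKM in WT LPS cells, against 16.7 FPKM in KO naive and 23.8 FPKM in WT naive cells (1.39 ± 0.32, adjusted p = 0.0103, limma). Its locus overlaps that of another listed gene, LOC622070. Trim34a (chr7:111392971-111410750) had 43.1 FPKM in KO LPS and 47.8 FPKM in WT LPS cells, against 17.95 FPKM in KO naive and 20.9 FPKM in WT naive cells (1.19 ± 0.27, adjusted p = 0.00951, limma). In all of these genes the LPS libraries lay above the naive ones. Trim34b, the least abundant of the 6, had 9.52 FPKM in KO LPS and 7.43 FPKM in WT LPS cells, against 3.58 FPKM in KO naive and 4.23 FPKM in WT naive cells, and its call was the weakest (0.94 ± 0.26, adjusted p = 0.0186, limma). Trim30b did not pass the test, at 5.90 FPKM in KO LPS and 6.15 FPKM in WT LPS cells, against 2.97 FPKM in KO naive and 3.35 FPKM in WT naive cells.

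Outside the cluster, 3 of 13 tested genes listed here under a RING and a PRY-SPRY end rose and 8 fell. Genes with a COS box were listed apart, whatever their other domains. The 3 were Trim21, Trim25 and Trim26. Trim21 (chr7:109706436-109713983), a cytosolic receptor for antibody on incoming virus, had 87.0 FPKM in KO LPS and 63.3 FPKM in WT LPS cells, against 10.2 FPKM in KO naive and 9.73 FPKM in WT naive cells. Its log2 fold change of 2.78 ± 0.23 (adjusted p = 0.000497, limma) was the third largest. Trim25 (chr11:88860717-88881607), the ligase that attaches ubiquitin chains to the RNA sensor RIG-I, had 113 FPKM in KO LPS and 67.9 FPKM in WT LPS cells, against 27.1 FPKM in KO naive and 28.1 FPKM in WT naive cells (1.63 ± 0.26, adjusted p = 0.00257, limma). Trim26 (chr17:36974086-36996325) had 46.9 FPKM in KO LPS and 34.5 FPKM in WT LPS cells, against 16.3 FPKM in KO naive and 17.98 FPKM in WT naive cells (1.19 ± 0.22, adjusted p = 0.00469, limma). In all 3 genes KO LPS cells held the highest value and the naive libraries of the genotypes lay close together.

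The remaining 3 members that rose were listed in other classes. Trim56 (chr5:137587156-137592077), a ligase that restricts RNA viruses, had 27.8 FPKM in KO LPS and 13.1 FPKM in WT LPS cells, against 4.75 FPKM in KO naive and 5.50 FPKM in WT naive cells (log2 fold change 1.72 ± 0.30, adjusted p = 0.00362, limma). Trim14 (chr4:46519719-46549016), which has no RING and acts as an adaptor of the mitochondrial protein MAVS, had 44.1 FPKM in KO LPS and 18.2 FPKM in WT LPS cells, against 9.46 FPKM in KO naive and 10.5 FPKM in WT naive cells (1.42 ± 0.34, adjusted p = 0.0111, limma). Trim36 (chr18:46324954-46372261), a microtubule-binding member with a COS box known from mouse sperm, had 16.9 FPKM in both LPS libraries, against 5.42 FPKM in KO naive and 4.50 FPKM in WT naive cells (1.59 ± 0.21, adjusted p = 0.00128, limma). Its locus overlaps that of the listed gene 1700018A14Rik. The KO LPS and WT LPS values lay far apart for Trim56 and Trim14 and were level for Trim36.

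Leaving out a library ended 4 of the 12 calls in at least 1 case. Trim12a had an adjusted p of 0.0690 without the KO LPS library, and Trim14 of 0.0582 without KO LPS and 0.0647 without KO naive cells (limma). Trim34a had 0.0549 without KO naive and 0.0623 without WT LPS cells. Trim34b had 0.119 without KO naive, 0.0941 without KO LPS and 0.0750 without WT LPS cells. The other 8 held in all alternatives run, namely Trim12c, Trim21, Trim25, Trim26, Trim30a, Trim30d, Trim36 and Trim56.

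**Figure D2:**
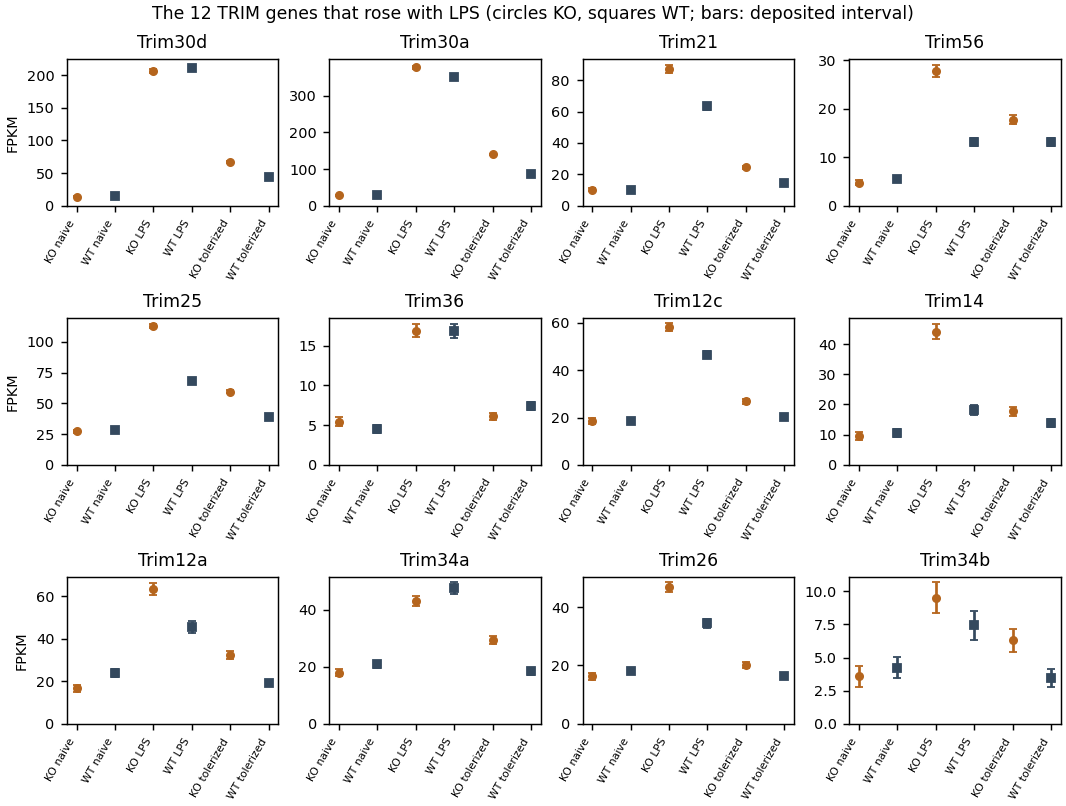
FPKM of the 12 TRIM genes that rose with LPS in each of the 6 libraries, with KO as circles left of WT squares in each condition and bars for the deposited interval. In each panel both LPS values lie above both naive values, and Trim14 and Trim56 have the largest ratio of KO to WT among LPS cells, at 44.1 against 18.2 FPKM and 27.8 against 13.1 FPKM.

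The promoters of these genes are shown because the 12 moved together and many TRIM genes are known targets of interferon. RefSeq promoter windows of 300 bases, from 250 before to 50 after the annotated start (GRCm38.p6, a later build than the mm9 of the tables), were found by symbol for 25 of the 33 tested members. The core of the interferon-stimulated response element, GAAA and GAAA with any 2 bases between them on either strand, was present in 7 of 10 members that rose and had a window. It was present in 0 of 11 that fell and 0 of 4 that did not pass the test. Over all 27025 genes of the table, 3.99% had a match. The 7 windows around the match follow, 5′ to 3′ on the strand of the gene, with the matched bases in capitals.
Trim30d, chr7:104507846-104507925, minus strand: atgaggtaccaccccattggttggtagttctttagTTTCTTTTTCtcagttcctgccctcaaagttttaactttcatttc
Trim30a, chr7:104465185-104465264, minus strand: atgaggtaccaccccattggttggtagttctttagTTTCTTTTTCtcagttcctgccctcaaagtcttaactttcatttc
Trim12c, chr7:104353334-104353413, minus strand: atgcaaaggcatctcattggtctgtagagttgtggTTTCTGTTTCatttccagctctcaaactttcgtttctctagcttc
Trim12a, chr7:104315466-104315520, minus strand: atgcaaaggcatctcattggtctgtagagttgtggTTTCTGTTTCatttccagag
Trim34a, chr7:104244432-104244486, plus strand: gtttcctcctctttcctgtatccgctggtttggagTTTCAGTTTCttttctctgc
Trim21, chr7:102565453-102565504, minus strand: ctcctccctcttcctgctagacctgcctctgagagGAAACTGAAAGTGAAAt
Trim26, chr17:36836951-36837036, plus strand: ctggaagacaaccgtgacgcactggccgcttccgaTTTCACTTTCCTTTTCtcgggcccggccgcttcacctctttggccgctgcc

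The windows of Trim30a and Trim30d differ at 1 of 80 aligned positions, and those of Trim12a and Trim12c at 2 of 55. These near-identical promoters are not independent cases of the match. Trim21 and Trim26 each hold a pair of overlapping matches. Trim30a has a second annotated start whose window also holds a match. The windows of Trim25, Trim56 and Trim34b hold none of these letters, and Trim14 and Trim36 had no window in the table. A gamma-activated site, TTCNNNGAA, was present in 0 of the 10 members that rose and in 9.55% of all genes. A core kappaB site, GGGA and TTCC with any 2 bases between them, was present in 0 of the 10 and in 1.63% of all genes, and among tested members it was found for Trim28 alone. Each match is a description of the letters, not of binding.

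**Figure D3:**
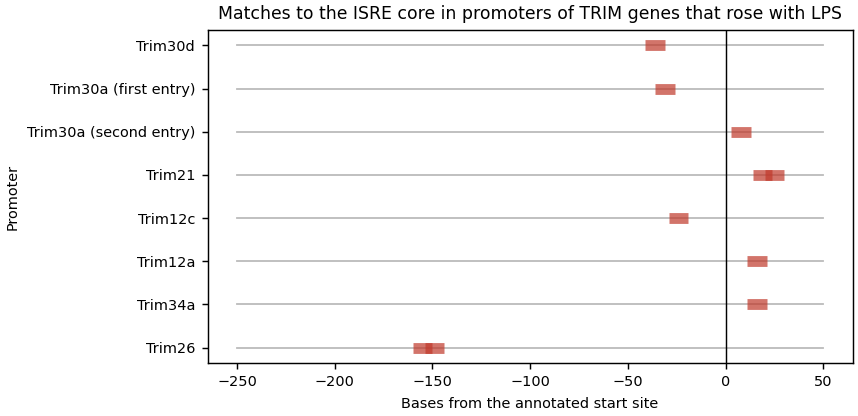
Place of each match to the interferon-stimulated response element core in the 300-base promoter windows of the 7 TRIM genes that rose with LPS and hold one, in bases from the annotated start (x axis), with 1 line per promoter and red blocks for matches. All matches outside Trim26 lie within 41 bases before and 29 bases after the start, and those of Trim26 begin 160 and 154 bases before it.

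The 16 members that fell with LPS included ligases that act on signalling proteins. Trim8 (chr19:46576138-46590945), which acts on the kinase TAK1 and on SOCS1, had 7.08 FPKM in KO LPS and 8.09 FPKM in WT LPS cells, against 35.3 FPKM in KO naive and 29.4 FPKM in WT naive cells (log2 fold change -1.95 ± 0.21, adjusted p = 0.000757, limma). Trim65 (chr11:115986022-115992442), a ligase of the RNA sensor MDA5, had 0.900 FPKM in KO LPS and 0.531 FPKM in WT LPS cells, against 8.08 FPKM in KO naive and 6.17 FPKM in WT naive cells. Its log2 fold change of -2.24 ± 0.18 (adjusted p = 0.000476, limma) was the most negative of the 33. Trim62 (chr4:128561384-128588570), a ligase of the adaptor CARD9, had 0.351 FPKM in KO LPS and 0.435 FPKM in WT LPS cells, against 2.81 FPKM in KO naive and 4.03 FPKM in WT naive cells (-1.65 ± 0.20, adjusted p = 0.00099, limma). For all 3 genes every LPS library lay below every naive library.

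Among the other PRY-SPRY genes, Trim7, which binds the glycogen primer glycogenin, fell by 1.70 on the log2 scale. Trim68, a coactivator of the androgen receptor, fell by 1.53, Trim41 by 1.45, Trim11 by 1.26 and Trim39 by 0.78. Trim47 had 3.06 FPKM in KO LPS and 6.16 FPKM in WT LPS cells, against 12.2 FPKM in KO naive and 20.2 FPKM in WT naive cells, and fell by 1.63 (adjusted p = 0.0045, limma). It was lower in KO than in WT cells in both conditions, while KO tolerized cells, at 9.27 FPKM, stood above WT tolerized cells, at 7.39 FPKM. The NHL-repeat ligase gene Trim3 fell by 1.30. Trim37, a centrosomal ligase mutated in mulibrey nanism, fell by 1.27, the membrane-anchored Trim59 by 1.22 and Trim23, which carries an ARF GTPase domain, by 1.01. Trim44, which has no RING, fell by 0.83. Adjusted p-values of these 11 genes lay between 0.00114 and 0.0156 (limma).

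The TIF1 genes encode nuclear co-regulators with a PHD finger and a bromodomain. Trim24, a co-regulator of nuclear receptors, had 1.43 FPKM in KO LPS and 2.09 FPKM in WT LPS cells, against 4.13 FPKM in KO naive and 5.97 FPKM in WT naive cells, and fell by 1.13 (adjusted p = 0.0035, limma). Trim33, a ligase of SMAD4, fell by 0.80. Trim28, known as KAP1, the co-repressor of KRAB zinc finger proteins, was the fourth most abundant member by mean level. It had 32.5 FPKM in KO LPS and 33.6 FPKM in WT LPS cells, against 44.1 FPKM in KO naive and 43.6 FPKM in WT naive cells, and did not pass the test (-0.40 ± 0.20, adjusted p = 0.125, limma). Its log2 fold change was 0.44 after rescaling.

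Of the 16 that fell, 8 were also called after rescaling and in every other alternative that tested them: Trim7, Trim8, Trim37, Trim41, Trim59, Trim62, Trim65 and Trim68. Trim37, Trim59, Trim62 and Trim68 were too low to be tested with the filter of 5 FPKM. The other 8 lost the call after rescaling. Trim33 and Trim39 also lost it without WT naive (adjusted p = 0.0613 and 0.0944, limma), KO LPS (0.0538 and 0.0534) or WT LPS cells (0.0567 and 0.0835). The members that did not pass the test were Trim13, Trim27, Trim28, Trim30b and Trim35. Trim27, the fusion partner of the kinase RET, had 8.39 FPKM in KO LPS and 12.03 FPKM in WT LPS cells, against 11.7 FPKM in KO naive and 11.3 FPKM in WT naive cells. Trim13, an ER-anchored ligase, had 28.7 FPKM in KO LPS and 34.9 FPKM in WT LPS cells, against 24.0 FPKM in KO naive and 11.6 FPKM in WT naive cells (adjusted p = 0.0514, limma). Its locus overlaps that of Dleu2.

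The changes with LPS can be compared between genotypes, since the 2 KO libraries and the 2 WT libraries are separate. Of the 33 members, 32 had the same sign in KO and WT cells, and Trim27 alone did not. The sign was the same for 97.0% of members and 86.0% of all genes. The correlation of the log2 fold changes across the 33 genes was 0.96, and across all 10139 genes it was 0.87. These are descriptions across genes, which are not independent replicates.

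**Figure D4:**
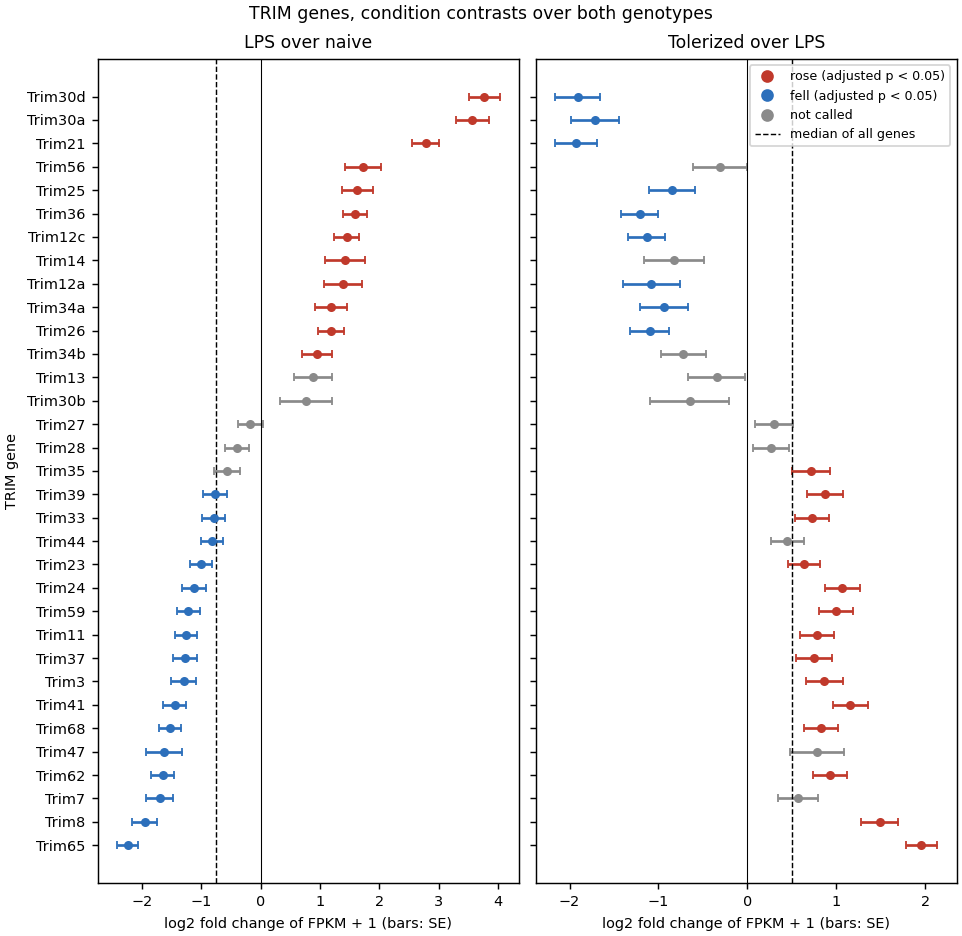
Log2 fold change of each of the 33 tested TRIM genes (points, with bars for the SE, 2 libraries per condition), for LPS over naive cells on the left and tolerized over LPS cells on the right, with red for genes that rose, blue for genes that fell, grey for genes not called and a dashed line at the median of all genes. The genes at the top rose with LPS and those at the bottom fell, and Trim30d, Trim30a and Trim21 have the largest values on the left at 3.77, 3.57 and 2.78. Both panels use the LPS libraries, so the right panel is not independent of the left.

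The second comparison asks what earlier LPS changed in the response to a second dose. Trim30a, Trim30d and Trim21 were lower in tolerized than in LPS cells, and Trim65 and Trim8 were higher. Of 33 members, 14 rose and 9 fell in tolerized against LPS cells (limma, adjusted p below 0.05), against 36.8% and 4.32% of all tested genes. The median log2 fold change was 0.45 over the members and 0.51 over all genes. After rescaling, 2 members rose and 11 fell, against 8.86% and 9.28% of all genes. This contrast shares the LPS libraries with the one above, so opposite directions in the pair are no independent result.

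The 9 that fell were Trim12a, Trim12c, Trim21, Trim25, Trim26, Trim30a, Trim30d, Trim34a and Trim36. Trim30a had 139.9 FPKM in KO tolerized and 87.0 FPKM in WT tolerized cells, against 378 FPKM in KO LPS and 352 FPKM in WT LPS cells (log2 fold change -1.72 ± 0.27, adjusted p = 0.00882, limma). Trim30d had 67.3 FPKM in KO tolerized and 44.6 FPKM in WT tolerized cells, against 206 FPKM in KO LPS and 211 FPKM in WT LPS cells (-1.91 ± 0.26, adjusted p = 0.00788, limma). Trim21 had 24.4 FPKM in KO tolerized and 14.4 FPKM in WT tolerized cells, against 87.0 FPKM in KO LPS and 63.3 FPKM in WT LPS cells (-1.93 ± 0.23, adjusted p = 0.00716, limma). In each of these the tolerized libraries lay below both LPS libraries, and KO stood above WT among the tolerized cells.

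Trim36 fell by 1.21, Trim12c by 1.13, Trim26 by 1.10, Trim12a by 1.08, Trim34a by 0.94 and Trim25 by 0.85, with adjusted p-values of 0.00983 to 0.043 (limma). Trim25 had 59.4 FPKM in KO tolerized and 38.9 FPKM in WT tolerized cells, against 113 FPKM in KO LPS and 67.9 FPKM in WT LPS cells. Of the 12 genes that rose with LPS, Trim14, Trim34b and Trim56 did not pass the test here. Trim56 had 17.8 FPKM in KO tolerized and 13.1 FPKM in WT tolerized cells, against 27.8 FPKM in KO LPS and 13.1 FPKM in WT LPS cells (-0.31 ± 0.30, adjusted p = 0.444, limma). Its 2 WT libraries were level, and without the KO LPS library its log2 fold change was 0.15.

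Of the 14 that rose, Trim65 changed most. It had 6.29 FPKM in KO tolerized and 5.01 FPKM in WT tolerized cells, against 0.900 FPKM in KO LPS and 0.531 FPKM in WT LPS cells (1.96 ± 0.18, adjusted p = 0.0069, limma). Trim8 had 24.6 FPKM in KO tolerized and 21.6 FPKM in WT tolerized cells, against 7.08 FPKM in KO LPS and 8.09 FPKM in WT LPS cells (1.49 ± 0.21, adjusted p = 0.00788, limma). These were the members that also rose after rescaling. The other 12 (Trim3, Trim11, Trim23, Trim24, Trim33, Trim35, Trim37, Trim39, Trim41, Trim59, Trim62 and Trim68) rose by 0.64 to 1.16, against an all-gene median of 0.51.

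These calls rest on few libraries. Without the KO LPS library, 1 member rose (Trim65) and 0 fell, by limma at an adjusted p below 0.05. The fold changes moved little: Trim21 was at -1.90, Trim30a at -1.82 and Trim30d at -2.04, with adjusted p-values of 0.0501, 0.0523 and 0.0501. Leaving out WT LPS, KO tolerized or WT tolerized cells instead also lowered both the number that rose and the number that fell. Between genotypes, 31 of 33 members (93.9%) had the same sign in this contrast, against 84.1% of all genes, and the correlation of log2 fold changes in KO and WT cells was 0.91 across members and 0.74 across all genes.

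Against naive cells, tolerized cells had a higher level of 4 members. Trim30a, Trim30d, Trim56 and Trim21 rose and Trim7, Trim62 and Trim68 fell, out of 33, against 7.41% and 19.7% of all genes (limma). The median log2 fold change was 0.09 over the members and -0.22 over all genes. After rescaling, 5 members rose and 1 fell, against 9.47% and 11.4% of all genes. Trim30a had 139.9 FPKM in KO tolerized and 87.0 FPKM in WT tolerized cells, against 29.2 FPKM in KO naive and 30.5 FPKM in WT naive cells (1.85 ± 0.27, adjusted p = 0.00683, limma). Trim30d changed by nearly the same amount (1.86 ± 0.26, adjusted p = 0.0059, limma). Both calls held in all alternatives run.

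Trim56 had 17.8 FPKM in KO tolerized and 13.1 FPKM in WT tolerized cells, against 4.75 FPKM in KO naive and 5.50 FPKM in WT naive cells (1.41 ± 0.30, adjusted p = 0.0198, limma), and lost the call without KO naive cells (adjusted p = 0.0780). Trim21 rose by 0.85 (adjusted p = 0.0406, limma). Its adjusted p was 0.0577 to 0.325 without any 1 of 5 libraries, WT naive being the exception. Trim7 had 2.36 FPKM in KO tolerized and 1.62 FPKM in WT tolerized cells, against 5.10 FPKM in KO naive and 5.87 FPKM in WT naive cells, and fell by 1.13 (adjusted p = 0.0163, limma). Without WT naive or WT tolerized cells its adjusted p was 0.0631 or 0.104. Trim62 fell by 0.72 and Trim68 by 0.70, and neither was called after rescaling. Leaving out any library ended the call of Trim68 (adjusted p = 0.0685 to 0.244, limma), and leaving out any library but KO naive ended that of Trim62 (0.0698 to 0.243). The cluster genes Trim12a, Trim12c, Trim34a and Trim34b did not pass the test, with log2 fold changes of 0.22 to 0.32. In this contrast 25 of 33 members (75.8%) had the same sign in KO and WT cells, against 78.2% of all genes, and the correlation was 0.76 across members and 0.79 across all genes.

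The third comparison asks whether KO and WT cells differed. Over all conditions, 0 of 33 members and 0 of 10139 genes passed the test (limma, adjusted p below 0.05, 3 libraries per genotype). At an unadjusted p below 0.05 there were 0 members and 707 genes, and the smallest adjusted p among members was 0.768. A KO difference that varies between conditions counts as spread in this test, which is therefore poorly placed to detect it. Within a condition there is 1 KO and 1 WT library, so differences have no replicate check and are given by size, at least 2-fold on log2(FPKM + 1). In naive cells 0 of 33 members passed in either direction, against 3.93% higher and 2.61% lower over all genes. In LPS cells 2 of 27 members were higher in KO and 0 lower, against 4.02% and 2.95%. In tolerized cells 1 of 32 was higher and 0 lower, against 1.75% and 0.717%.

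The 2 in LPS cells were Trim14 and Trim56. Trim14 had 44.1 FPKM (deposited interval 41.6 to 46.7) in KO LPS and 18.2 FPKM (16.4 to 19.9) in WT LPS cells, a log2 difference of 1.24. Trim56 had 27.8 FPKM (26.5 to 28.98) in KO LPS and 13.1 FPKM (12.2 to 14.0) in WT LPS cells, a difference of 1.02. In naive cells the KO value of each lay slightly below the WT value. In tolerized cells Trim30b had 6.90 FPKM (6.24 to 7.55) in KO and 1.54 FPKM (1.22 to 1.85) in WT cells, a difference of 1.64. It is a low, paralogous cluster gene. Trim13 came closest to the limit in naive cells, with 24.0 FPKM in KO and 11.6 FPKM in WT cells, a log2 difference of 0.99.

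A second description counts members whose deposited KO and WT intervals did not overlap. In naive cells 4 of 33 were higher in KO and 7 lower, against 25.2% and 30.2% of all genes. In LPS cells 8 were higher and 8 lower, against 22.6% and 34.9%, and in tolerized cells 16 were higher and 5 lower, against 21% and 22.3%. Of the 12 members that rose with LPS, 0 were higher in KO naive than in WT naive cells with intervals apart and 2 were lower, Trim12a and Trim34a, with a median log2 difference of -0.13 over the 12. In LPS cells 8 of the 12 were higher and Trim34a was lower (median 0.38). In tolerized cells 11 were higher and Trim36 was lower (median 0.59). The all-gene medians of KO over WT were -0.03 in naive, -0.11 in LPS and -0.02 in tolerized cells. This pattern rests on 1 library per group and has no test. Of the 12 genes, 6 are cluster paralogs that can share reads, so the counts are not of separate cases. The 12 were not set against other genes that rose with LPS.

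**Figure D5:**
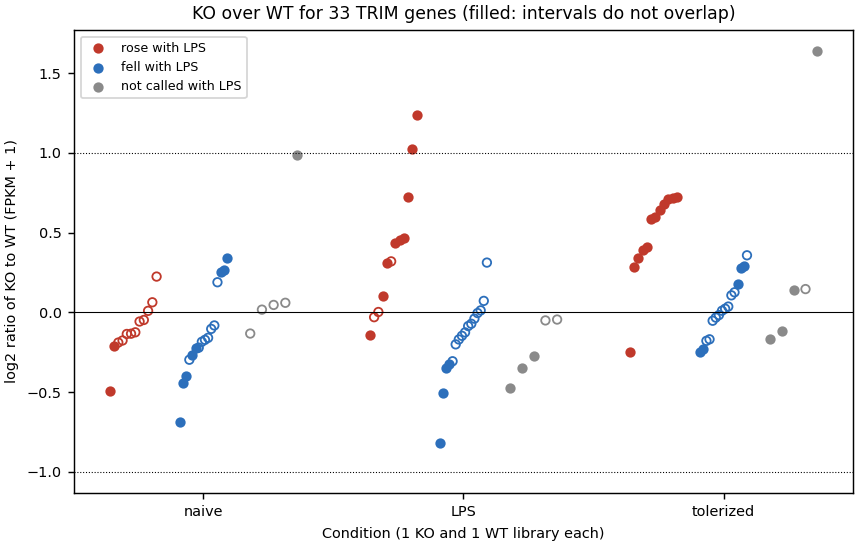
Log2 ratio of KO to WT on FPKM + 1 for each of the 33 tested TRIM genes in naive, LPS and tolerized cells (1 KO and 1 WT library each), colored by the call with LPS, with filled points where the deposited intervals do not overlap and dotted lines at 2-fold. Among the 12 red genes, the median is -0.13 in naive, 0.38 in LPS and 0.59 in tolerized cells, where 11 lie above 0.

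Some genes of the interferon lists, picked here after their values were seen, also differed between the KO and WT libraries. Ifnb1, which encodes interferon beta, had 134.0 FPKM in KO LPS and 13.5 FPKM in WT LPS cells. Irf7, a transcription factor of the interferon response, had 1151 FPKM in KO tolerized and 529 FPKM in WT tolerized cells, and 110.5 FPKM in KO naive and 7.45 FPKM in WT naive cells. Isg15, an interferon-induced ubiquitin-like protein, had 806 FPKM in KO tolerized and 372 FPKM in WT tolerized cells, and 39.7 FPKM in KO naive and 4.19 FPKM in WT naive cells. Irf9 did not follow in LPS cells, with 62.2 FPKM in KO LPS and 73.0 FPKM in WT LPS cells. Stat2 was close between the genotypes in naive cells, with 12.6 FPKM in KO naive and 11.6 FPKM in WT naive cells. It had 106 FPKM in KO LPS and 86.6 FPKM in WT LPS cells, and 44.7 FPKM in KO tolerized and 31.4 FPKM in WT tolerized cells. None of these 5 genes passed the KO against WT test. Not all listed genes had a naive gap of the size seen for Irf7 and Isg15. Ifih1 had 11.5 FPKM in KO naive and 7.95 FPKM in WT naive cells, and Usp18 had 12.2 and 8.63 FPKM. Of the 12 TRIM genes that rose with LPS, 3 were higher and 9 lower in KO naive than in WT naive cells. Among markers of large peritoneal macrophages, Vsig4 had 1.87 FPKM in KO naive and 158.5 FPKM in WT naive cells. Alox15, F5 and Gata6 were also lower in KO naive than in WT naive cells. Timd4 went the other way, with 108 FPKM in KO naive and 35.6 FPKM in WT naive cells. The part of these differences in the TRIM values was not tested.

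The knockout removes miR-221 and miR-222, which lie on the X chromosome and share a seed, bases 2 to 8 in capitals. Their mature sequences (RefSeq, GRCm38.p6) show what a target would pair with.
mmu-miR-221-3p, chrX:19146307-19146329, minus strand: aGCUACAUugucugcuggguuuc
mmu-miR-222-3p, chrX:19146901-19146923, minus strand: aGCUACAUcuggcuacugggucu
The complement of that seed, ATGTAGC, was found in an annotated 3′ UTR (GENCODE, GRCm38) of 6 of 33 tested members, 18.2%, against 12.7% of 9018 tested genes with an annotated 3′ UTR. The 6 were Trim7, Trim14, Trim30b, Trim36, Trim37 and Trim44. They include Trim14, which passed the 2-fold rule in LPS cells, and Trim30b, which passed it in tolerized cells. Trim56, which also passed it in LPS cells, had no site. The sites of Trim14 and Trim30b are shown with the match in capitals.
Trim14 site: ggaaaagggtgATGTAGCtgaaacctgag
Trim30b site: tctagctgcatATGTAGCagatgatggcc
The median log2 ratio of KO to WT over the 6 was -0.12 in naive, -0.05 in LPS and 0.06 in tolerized cells. Over the 27 members without a site it was -0.13 in naive, -0.05 in LPS and 0.15 in tolerized cells. A match shows only that the letters are present.

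Genes of the pathways in which TRIM proteins act were read from lists, whose counts are read against the shares of all genes given above for each contrast and scale. With LPS those were 8.74% rose and 54.4% fell as deposited and 22.6% and 24.2% after rescaling. Of 3 tested TRIM genes that carry other symbols, all 3 rose with LPS: Pml, of nuclear bodies, by 1.89, Mefv, which encodes pyrin, by 2.39, and Mid1, a microtubule-binding ligase, by 1.37 on the log2 scale. Of 13 genes of the RIG-I, cGAS and STING pathways, 6 rose with LPS and 4 fell, or 8 and 1 after rescaling. The sensors rose, with Ifih1 (MDA5, the substrate of Trim65) at 5.36 ± 0.23, Dhx58 (LGP2) at 3.61 ± 0.26 and Ddx58 (RIG-I, the substrate of Trim25) at 3.003 ± 0.20. On the deposited scale Mavs, the adaptor of RIG-I and MDA5, fell by 1.87, and Tmem173 (STING) fell by 1.31 (adjusted p below 0.05, limma). In tolerized against LPS cells 5 of the 13 rose and 3 fell, against 36.8% and 4.32% of all genes. After rescaling 0 rose and 6 fell, against 8.86% and 9.28%. Against naive cells 7 rose and 0 fell on both scales.

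Of 14 Toll-like receptor adaptors and TAK1 complex genes, 2 rose with LPS (Myd88 by 1.65 and Tab2, a target of Trim30a, by 0.78) and 5 fell, among them Tab1 by 1.57 and Irak4 by 1.39. After rescaling 7 rose and 1 fell. In tolerized against LPS cells 3 of these 14 rose and 1 fell (1 and 2 after rescaling), and against naive cells 1 rose and 1 fell (4 and 0 after rescaling). Of 5 genes that conjugate or remove ISG15, 4 rose with LPS, led by Isg15 at 7.21 ± 0.61 and Usp18 at 5.26 ± 0.27. In tolerized against LPS cells 3 of the 5 fell, and against naive cells all 5 rose. Of 9 interferon signalling genes, 5 rose with LPS and 1 fell (6 and 0 after rescaling). In tolerized against LPS cells 1 rose and 3 fell (0 and 5 after rescaling), and against naive cells 3 rose and 0 fell (4 and 0 after rescaling). The lists are described by counts alone and were not tested as sets. In KO against WT cells 0 genes of these lists passed the test.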

How the data were processed

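RNA of peritoneal macrophages was enriched for poly-A mRNA and sequenced from TruSeq libraries, per the labels' protocols. The authors deposited 1 table per library with FPKM and the bounds of its interval, per the file headers. The submitters' processing notes name bcl2fastq 1.8.4, TopHat, Cufflinks and the mouse build mm9, with no further settings. Read counts and depth per library are unknown, so precision is given by the deposited intervals.

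Of 23699 rows, 349 not marked OK, 712 of symbols listed more than once and 655 of small RNA genes were left out, with overlap, leaving 22166. No 2 libraries held identical values. A filter of 2 FPKM or more in 2 or more libraries left 10139 genes, and the log2(FPKM + 1) scale used understates fold changes of low genes. The two-sided test was an additive model of genotype and condition in limma 3.58.1 (R 4.3.3, trended eBayes), with 2 residual and 4.2 prior degrees of freedom, Benjamini-Hochberg adjustment over all genes and a threshold of 0.05. Rose and fell are used of genes past it. P-values measure the spread between these libraries, which may be technical. The model has no interaction term, so a change that differs between the genotypes counts as spread. KO against WT within a condition used a 2-fold rule among genes that reached 2 FPKM in either library. Fold changes were recomputed after rescaling each library by its median of ratios, with factors of 0.688 to 1.31, because the all-gene median moved with LPS. The fit was checked on simulated data.

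Members and gene lists were chosen with earlier results of these data known. Named genes are members past a threshold, the 5 members of highest mean FPKM, 8 fixed members and 2 to 4 of each other list with the largest values; Trim13, Trim29, Trim47 and a few list and marker genes were named after their values were seen. Promoter, microRNA and 3′ UTR sequences came from RefSeq and GENCODE on GRCm38 by symbol, with no coordinates moved between builds. The promoter bases after the start were found in a transcript of the gene, on the same strand, for 26 of 31 member promoters. A further gene list is not reported here.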

Additional observations from a re-analysis of the deposited data

Results flagged for a closer look

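For 3 members of the chromosome 7 cluster, tolerized against naive cells moved in opposite directions in KO and WT on the deposited scale. Their deposited intervals were apart in both genotypes, and the share of all genes with such intervals was not counted. Trim34b, also of the cluster, went from 3.58 to 6.31 FPKM in KO cells. In WT cells it went from 4.23 to 3.47 FPKM, with overlapping intervals. In this contrast 75.8% of members and 78.2% of all genes had the same sign in both genotypes. The difference between genotypes was not tested, since each value compares 2 single libraries. Trim12a had a log2 ratio of tolerized over naive of 0.92 in KO and -0.30 in WT cells, a difference of 1.22. Trim34a had 0.68 in KO and -0.17 in WT cells, a difference of 0.85. The direction of Trim34a in WT cells depends on the scale. After rescaling, by 1.31 for WT naive and 1.10 for WT tolerized cells, it was slightly higher in WT tolerized than in WT naive cells. Trim12a was nearly level between WT naive and WT tolerized cells after the same rescaling, so its decrease in WT cells also depends on the scale. Trim30b had 0.99 in KO and -0.78 in WT cells, a difference of 1.77. The 3 genes are paralogs that can share reads.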

How the results depend on the processing

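No called fold change reversed under any alternative run. Calls held in every alternative that tested the gene for 16 of 28 members with LPS against naive cells. The same was so for 1 of 23 (Trim65) in tolerized against LPS cells and 2 of 7 (Trim30a and Trim30d) in tolerized against naive cells. With LPS against naive, the number that fell was 10 with a filter of 5 FPKM and 8 after rescaling. In tolerized against LPS, the number that rose was 9 without a filter, 8 with the 5 FPKM filter and 2 after rescaling. In tolerized against naive, the number that fell was 1 with a pseudocount of 0.1, the 5 FPKM filter or rescaling, and the number that rose was 2 without a filter. Leaving out 1 library each, 10 to 14 rose and 14 to 16 fell with LPS, 1 to 14 rose and 0 to 10 fell in tolerized against LPS, 3 to 5 rose and 0 to 2 fell in tolerized against naive, and 0 passed in KO against WT. The stricter filter tests fewer members, and leaving out a library leaves fewer samples; the cause of the other shifts was not tested.

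Uncalled values that changed sign were those of Trim28 after rescaling (0.44 for LPS against naive, -0.32 for tolerized against LPS and 0.11 for tolerized against naive). Trim27 was at 0.61 after rescaling for LPS against naive, and between -0.38 (without WT LPS) and 0.030 (without KO LPS cells) when 1 library was left out, with 0.0058 without KO naive cells. It was at -0.26 after rescaling for tolerized against LPS and between -0.065 (without WT naive) and 0.30 (without KO naive cells) for tolerized against naive. Trim56 lay between -0.76 (without WT LPS) and 0.15 (without KO LPS cells) for tolerized against LPS.

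No paired analysis was possible because the labels carry no replicate numbers and each group is 1 library. The genotype term pairs the conditions within a genotype; without that term (no replicate block) 12 rose and 17 fell with LPS, 14 and 8 in tolerized against LPS, and 3 and 2 in tolerized against naive. The 31 of 65 members below 2 FPKM in all libraries were not tested.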
